A study of Homo sapiens with 12 samples.

Results

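To examine how activation of MycER changed the places where DNA synthesis starts in cells with CDK12 intact, early replicating regions (ERRs) as listed for shNT and for shNT + OHT cells were compared region by region on the autosomes. The lists held 3796 and 4556 autosomal regions, which makes 8352 of the 18185 regions of the series. The cells were U2OS, a human osteosarcoma line, carrying a chimera of Myc and the estrogen receptor that 4-hydroxytamoxifen (OHT) activates, and a virus-delivered hairpin RNA that targets no gene (shNT). Both groups received doxycycline at 1 µg/mL to express the hairpin, nocodazole at 100 ng/mL for 8 h with shake-off of the mitotic cells, and then 25 µM EdU with 2 mM hydroxyurea for 24 h. The shNT + OHT group had in addition received 300 nM OHT for 40 h. Each group comprised 3 samples that the authors merged into 1 list, so no difference below has a replicate check. Intervals of ratios cover counting error only, and those of medians cover the spread between regions only. Another pair of lists, shCDK12 and shCDK12 + OHT, came from separate samples with a hairpin against CDK12, a kinase of transcribing RNA polymerase II, and serves as a comparison. Whether the cells were a clone or a pool, and which vehicle the cells without OHT received, is not given in the labels.

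EdU is a thymidine analogue that is built into newly made DNA and can be coupled to biotin, so that labelled DNA can be pulled down and sequenced. Hydroxyurea depletes nucleotides and halts forks close to the origins from which they left, and the label therefore marks the origins that fire at the beginning of S phase. Such origins lie mostly in gene-rich, transcribed chromatin. Myc is a transcription factor that drives cell growth and entry into S phase, and forced Myc activity is known to disturb the timing and placing of origin firing.

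Most ERRs were listed both with and without activated MycER. Of the 3796 shNT regions, 3103 (81.7%) overlapped exactly 1 region of shNT + OHT that overlapped no other, and these 3103 made up 68.1% of the shNT + OHT list. A further 456 shNT regions were joined into 216 regions with OHT, 99 were divided into 199, and 81 regions of shNT overlapped 72 of shNT + OHT several to several. The remainder were 966 regions listed only with OHT and 57 listed only without it. The called length rose from 441.5 to 487.3 Mb. Of this gain of 45.7 Mb, 70.0% came from the regions listed only with OHT, 19.9% from the matched regions (the net of wider and narrower ones) and 12.9% from joined regions, while the regions listed only in shNT took away 1.38 Mb.

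The autosomal regions held 17261176 reads in shNT and 49994993 in shNT + OHT. The size of each library outside the regions is not known here, so read densities were divided by the median density of the matched regions of their list, which was 22.4 reads per kb in shNT and 61.3 in shNT + OHT, a ratio of 2.74. A region whose reads per kb rose by that factor has a log2 density ratio of 0. All densities and ratios below are on this relative scale and cannot show a change that all regions share. The matched regions held a median of 1553 reads in shNT and 4353 with OHT, which gives a median half-width of 0.085 for the 95% counting interval of a log2 ratio.

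The relative density of matched ERRs differed little between the lists. The middle 50% of log2 ratios lay between -0.16 and 0.13, 98% lay between -0.74 and 0.50, and 2431 regions (78.3%) were within 1.2-fold. At a limit of 1.5-fold, 19 regions were higher with OHT and 52 were lower, which is 0.612% and 1.68% of the 3103. This balance depends on the scale: when densities were divided by the median of the regions up to 2 kb wide instead, 249 were higher and 24 lower, and the median log2 ratio was 0.32. The last region inside the lower limit had a ratio of 0.666 and the next one 0.668, and the ratios on either side of the upper limit were 1.51 and 1.49. The spread depended on the width of the region. Among the 2954 matched regions over 10 kb wide, 2 were higher and 22 lower, whereas the 149 regions up to 10 kb wide held 17 of the higher and 30 of the lower ones.

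**Figure D1:**
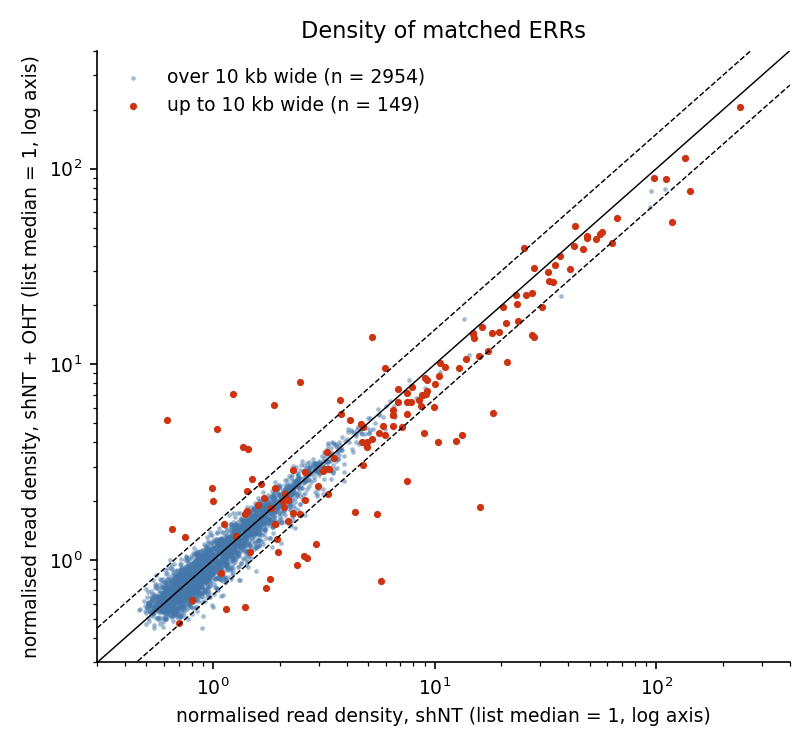
Normalised read density of the 3103 matched ERRs in shNT (x axis) and shNT + OHT (y axis), both relative to the median of the list and on log axes. Solid line, equal density. Dashed lines, 1.5-fold differences. The 2954 regions over 10 kb wide (blue) run along the line of equal density, and most points outside the dashed lines are among the 149 regions up to 10 kb wide (red).

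Named regions had at least 200 reads and 10 kb in both lists. The highest density ratio was found on chromosome 3 at chr3:115037201-115071600, with 494 reads in shNT and 2367 with OHT. Its normalised density was 0.642 in shNT and 1.01 with OHT, a log2 ratio of 0.65 (95% counting interval 0.51 to 0.79), and its edges moved outward by 1.2 and 2.8 kb. No region of either CDK12-silenced list overlapped it. On chromosome 6, chr6:49500001-49546400 rose from 575 to 2691 reads and from 0.554 to 0.838 in normalised density (log2 ratio 0.60, 0.47 to 0.73). In the silenced cells this region moved in the same direction, with a log2 ratio of 0.52.

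The other 3 of the 5 highest ratios lay just under the limit. Near the end of the short arm of chromosome 5, chr5:132401-208400 had 1027 reads in shNT and 3570 with OHT (log2 ratio 0.57), although its left edge was 10 kb further in with OHT. On chromosome 3, chr3:51695201-51770400 went from 899 to 3981 reads (0.56), and on chromosome 14, chr14:77218801-77259200 went from 582 to 2384 reads (0.55). All 5 started from a normalised density below that of the median region, between 0.534 and 0.644 in shNT, and stood between 0.789 and 1.01 with OHT. They were picked by a ratio whose denominator is the shNT density, which favours low shNT values, so this is not a separate result. The silenced lists held the chromosome 5 and chromosome 3 regions with log2 ratios of 0.32 and 0.31. On chromosome 3 the silenced ratio compares a call of 29.2 kb in shCDK12 with one of 101.6 kb in shCDK12 + OHT. The chromosome 14 region was absent from shCDK12 and part of a region of 393.2 kb in shCDK12 + OHT.

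The lowest ratios were larger in size. On chromosome 4, chr4:69214401-69242000 held 714 reads in shNT and 748 with OHT, so that its reads hardly changed while those of the median region rose by the factor of 2.74. Its normalised density went from 1.16 to 0.555, a log2 ratio of -1.06 (-1.21 to -0.91). The region was called in shCDK12 and not in shCDK12 + OHT. On chromosome 11, chr11:131184401-131258800 held 2597 and 3007 reads, and its normalised density went from 1.56, above the median region, to 0.877 (log2 ratio -0.83, -0.91 to -0.75). It too was called in shCDK12 and not in shCDK12 + OHT, and its called width fell from 74.4 to 56.0 kb in the shNT pair.

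A region on chromosome 6, chr6:44609601-44671200, went from 1375 to 1782 reads (log2 ratio -0.80), and one on chromosome 8, chr8:13205601-13236800, from 627 to 961 reads (-0.80). Neither overlapped a region in the silenced cells. The remaining one, chr8:104090801-104103200, differed in kind, since its right edge moved outward by 28.4 kb and the called region grew from 12.4 to 39.6 kb. Its reads rose from 248 to 1097, the density over the wider region was lower (log2 ratio -0.98), and the silenced pair gave -0.68 with a gain of 32.0 kb. For this region the ratio therefore compares a narrow stretch with a wider one around it.

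The called width was compared between the lists for the regions past the limit, of all widths. Of the 19 regions with a higher density, 16 were called narrower with OHT, 2 wider and 1 at the same width. The 52 regions with a lower density comprised 22 called narrower, 13 wider and 17 of the same width. The 91 regions up to 10 kb wide whose limits were identical in both lists had a median log2 ratio of -0.31, and the 84 matched regions up to 2 kb wide had -0.26. In the silenced pair the regions up to 2 kb wide with a counterpart had a median of -0.32 (n = 79). Above 10 kb the median rose with width in the shNT pair: it was -0.08 from 10 to 50 kb (n = 830), 0.02 from 50 to 200 kb (n = 1751) and 0.06 above 200 kb (n = 373). The medians of their counterparts in the silenced pair were 0.00 (n = 579), 0.00 (n = 1225) and -0.02 (n = 201).

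**Figure D2:**
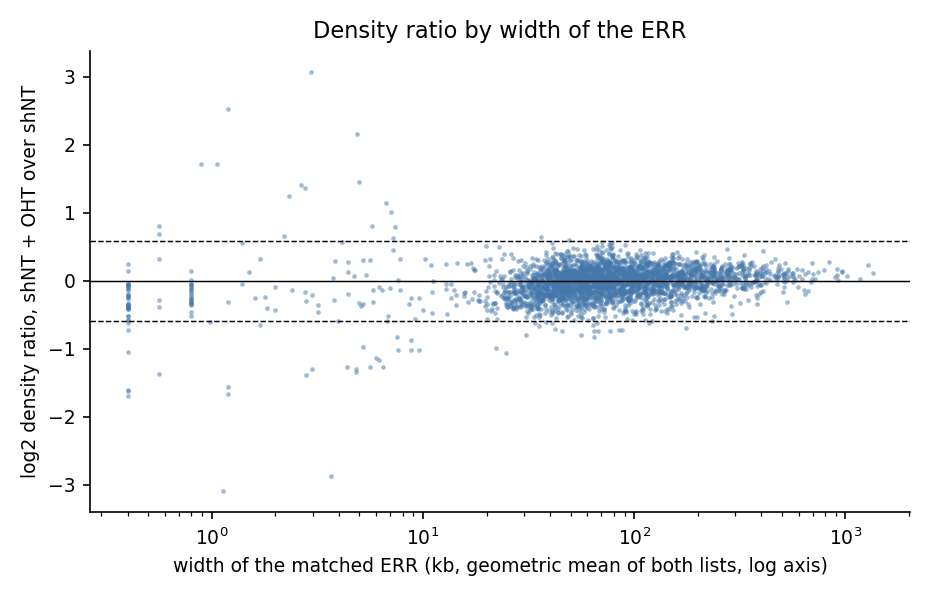
Log2 ratio of normalised density, shNT + OHT over shNT, against the width of each of the 3103 matched ERRs (geometric mean of both lists in kb, log axis). Dashed lines, 1.5-fold. The scatter is widest below 10 kb, and the median rises from -0.08 at 10 to 50 kb to 0.06 above 200 kb.

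Some of the dense regions lie in sequence that is hard to map, and these were examined after their values were seen. Beside the centromere of chromosome 1, chr1:121478401-121485600 held 22810 reads in shNT, 142 times the density of the median region, and 50993 reads with OHT, 77.1 times the median (log2 ratio -0.88, and -1.12 in the silenced pair). Near the centromere of chromosome 16, chr16:33933201-33988400 held 46024 and 103249 reads (log2 ratio -0.74). At chr1:564401-570400, where a near-copy of mitochondrial DNA is inserted in the nuclear genome, reads rose from 15814 to 19673, and the log2 ratio was -1.14 with the same limits in both lists and -1.04 in the silenced pair. Chromosome M itself, which is not part of the autosomal comparison, held 1587463 reads in shNT and 1413690 with OHT, which on the same scale is a log2 ratio of -1.62. These examples other than chromosome M were picked among regions past the lower limit. Beside the centromere of chromosome 20, chr20:26188401-26190800, of similar density, went from 5265 to 13099 reads (log2 ratio -0.14). Whether library depth, the share of labelled DNA or both set this difference was not tested.

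Regions past the 1.5-fold limit were also concentrated in a stretch of chromosome 7. The window from 90 to 100 Mb held 22 matched regions, of which 6 were lower and 3 higher, the most of any window. All 9 lay within 1.58 Mb, between 90755201 and 92334400, where 14 matched regions had a median width of 6.0 kb in shNT. The 6 lower ones gained few reads or lost some, with 0.875 to 1.74 times the shNT reads, as at chr7:90893201-90898000, which had 468 reads in shNT and 519 with OHT in identical limits (log2 ratio -1.30). The 3 higher ones had fewer reads with OHT in much narrower called regions. At chr7:92324801-92334400 there were 309 reads over 9.6 kb in shNT and 182 over 0.8 kb with OHT (log2 ratio 1.37). In this stretch a higher density did not mean more reads.

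The widths of matched ERRs were not shifted as a whole. The median width was 69.6 kb in shNT and 72.8 kb with OHT, while the median of the log2 width ratios was 0 (95% interval of the median 0 to 0). With OHT 1482 regions were wider (47.8%), 1445 narrower (46.6%) and 176 the same, and 35 were at least 2-fold wider against 46 at least 2-fold narrower. Gains were however larger than losses. The 5th and 95th percentiles of the width difference were -14.8 and 31.2 kb, and the mean was a gain of 2.94 kb.

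The same asymmetry was seen at the edges. Of the 6206 edges, 59.4% lay within 4 kb of their place in shNT and 10.5% had not moved, on the 400 bp grid of the lists. Moves of 10 kb or more were outward at 653 edges and inward at 329. At 20 kb or more the counts were 281 and 52, at 50 kb or more 67 and 3, and at 100 kb or more 7 and 0. Outward moves added 23.2 Mb, of which 11.0 Mb came from the 281 edges that moved by 20 kb or more, and inward moves removed 14.04 Mb. Left and right edges shared these moves about equally, with 1378 left and 1360 right edges further out. Both edges lay further out in 22.8% of the regions and both further in in 23.6%, and across the 3103 regions the moves of the left and right edge of a region were barely correlated (Pearson r = 0.088, a description over regions of the same pair of lists). Whether the cells or the depth of the lists set the excess of long outward moves was not tested.

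**Figure D3:**
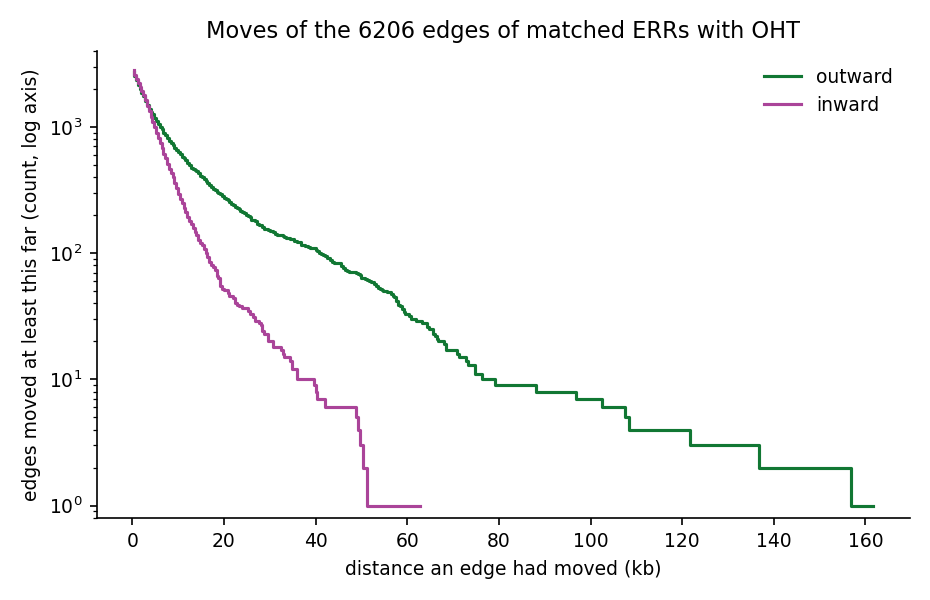
Number of edges of matched ERRs (log axis) that lay at least a given distance (kb) further out (green) or further in (purple) with OHT. The curves run together at a few kb and then part, with 653 edges against 329 at 10 kb, 281 against 52 at 20 kb and 67 against 3 at 50 kb.

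The largest gain of width was on chromosome 22. The region at chr22:23546001-23651200 spanned 105.2 kb in shNT and 278.0 kb with OHT, its left edge 156.8 kb and its right edge 16.0 kb further out. Its reads went from 1685 to 11782, and its normalised density was 0.716 and 0.692 (log2 ratio -0.05, -0.12 to 0.03), so the density over the wider region was within counting error of that over the narrower one. On chromosome 10, chr10:102382401-102537600 grew from 155.2 to 301.6 kb through a left edge 161.6 kb further out, the longest move of any edge, while its right edge was 15.2 kb further in. Reads there went from 2141 to 12658 (log2 ratio 0.15). On chromosome 8, chr8:142550801-142608400 kept its left edge and grew to the right by 136.8 kb, from 57.6 to 194.4 kb.

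Growth on both sides was seen near the end of the short arm of chromosome 5, where chr5:397601-561600 gained 68.0 kb on the left and 66.8 kb on the right and went from 2947 to 15276 reads. The region at chr9:136492001-136629600 gained 121.6 kb on the right and 5.6 kb on the left, and chr14:100992801-101081600 gained 108.4 kb on the right and 3.6 kb on the left. The log2 density ratios of these widened regions lay between -0.17 and 0.21, within the usual range of matched regions. In the silenced cells the chromosome 22 site was already covered by a region of 295.6 kb without OHT and by one of 649.6 kb with it, and the chromosome 9 site by 188.4 kb in 2 regions without OHT and by 600.4 kb in 1 region with it. The chromosome 5 site did not widen there, with 306.8 kb in 2 regions without OHT and 308.4 kb in 2 with it, and the chromosome 10 site went from 344.0 to 657.2 kb, that on chromosome 8 from 84.8 to 175.2 kb and that on chromosome 14 from 165.2 to 194.4 kb.

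Losses of width were smaller. The largest was on chromosome 8, where chr8:131342801-131788400 went from 445.6 to 372.4 kb, its right edge 62.8 kb further in, with 17847 reads in shNT and 36703 with OHT (log2 ratio -0.15). Another chromosome 8 region, chr8:17636401-17722400, shrank from 86.0 to 28.0 kb, and 3 regions of chromosome 1 followed. Of these, chr1:14745201-14827200 went from 82.0 to 26.0 kb, with fewer reads with OHT (823) than without (1196), and chr1:177934001-178058400 went from 124.4 to 70.4 kb. The last, chr1:209700801-209880800, lost 51.6 kb yet became relatively denser, with normalised densities of 0.953 and 1.25 (log2 ratio 0.39, 0.34 to 0.45). Its reads went from 3838 to 9847, by less than the scale factor of 2.74, over a call that narrowed from 180.0 to 128.4 kb. For this region the higher density was thus not a relative gain of reads. Among the 5 longest inward moves were also the left edge of chr20:52286401-52573200, by 49.6 kb, and the right edge of chr11:130861601-130986000, by 49.2 kb. The chromosome 20 region kept its density (log2 ratio 0.01, -0.03 to 0.04), with 11806 reads in shNT and 26635 with OHT.

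Neighbouring ERRs were joined more often than ERRs were divided. Joining produced 216 regions, 195 of them from 2 pieces, 18 from 3 and 3 from 4 or more, and the 240 gaps that were closed had a median of 6.4 kb and added up to 3.44 Mb. The middle 50% of these gaps were between 4.8 and 16.1 kb and the shortest was 4.4 kb, but 15 exceeded 50 kb and the longest was 104 kb. The 99 divided regions opened 100 gaps with a median of 5.6 kb, none over 50 kb, and a sum of 0.806 Mb. More regions were joined than divided on 20 of 22 autosomes. Whether the cells or the depth of the lists set this excess of joined regions was not tested. On chromosome 17, 4 pieces between 17080801 and 18187200 with 46403 reads became 1 region of 1109.6 kb with 152573 reads, and the normalised density was 1.92 over the pieces and 2.24 over the joined region. On chromosome 9, 4 pieces between 130079201 and 130840000 became 1 region of 768.8 kb (2.26 and 2.18), and on chromosome 1, 4 pieces between 43178801 and 43560400 became 1 of 390.8 kb (1.19 and 1.19).

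The only region divided into 3 was chr17:33402001-33478400, which went from 76.4 kb in 1 region to 62.4 kb in 3. The other 2 named divisions concerned wide and dense regions. On chromosome 19, chr19:45060001-46852400 (1792.4 kb, 105890 reads) was interrupted by a single gap of 4.8 kb with OHT, and its normalised density was 2.64 in both lists. On chromosome 1, chr1:155812001-156935200 (1123.2 kb, 87360 reads) was likewise interrupted by 4.8 kb, and its density was 3.47 in shNT and 3.85 in the pieces. These divisions removed almost no called sequence.

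The 966 ERRs listed only with OHT were mostly narrower and less dense than matched ERRs. Their median width was 31.6 kb, with 50% between 23.2 and 40.8 kb, and their normalised density had a median of 0.556 with quartiles of 0.516 and 0.611. Of the 966, 633 (65.5%) had a density below 0.586, the 5th percentile of the shNT list. Of all 4556 regions of shNT + OHT, 883 (19.4%) lay below it. Among the 884 regions over 10 kb wide, the highest normalised density was 0.937, so none reached the median matched region. The 82 regions up to 10 kb wide had a median of 2.15, and 59 of the 966 exceeded 1, with a maximum of 5.35. The median read count of the 966 was 1047.5. When both lists were held to the same minimum of the deposited score, 649 regions were listed only with OHT. Whether the cells or the depth of the lists set the gain was not tested.

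**Figure D4:**
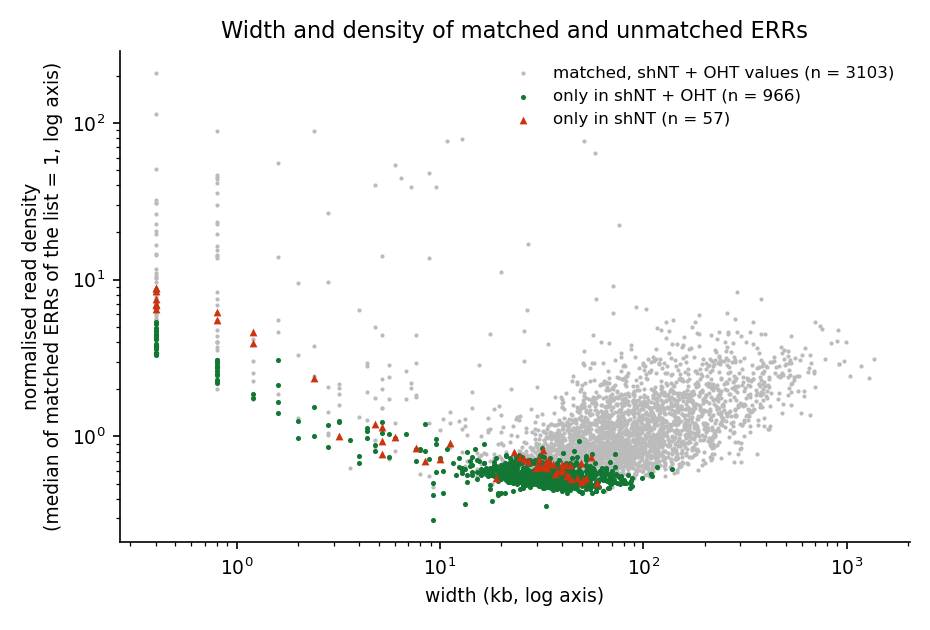
Width (kb, log axis) and normalised read density (median of the matched ERRs of the list set to 1, log axis) of matched ERRs with their shNT + OHT values (grey), of the 966 listed only in shNT + OHT (green) and of the 57 listed only in shNT (red triangles). Unmatched ERRs over 10 kb wide all lie below a density of 1, while 59 narrower ones listed only in shNT + OHT and 15 listed only in shNT lie above it.

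The widest of them was chr7:30688801-30827200, with 138.4 kb, 5252 reads and a normalised density of 0.620. It was followed by chr1:55201201-55318400 (117.2 kb, 4587 reads, 0.639), chr15:45370801-45480800 (110.0 kb, 3765 reads, 0.559), chr4:1247201-1356000 (108.8 kb, 3812 reads, 0.572) and chr17:72176001-72284400 (108.4 kb, 3814 reads, 0.574). All 5 overlapped a region in shCDK12 + OHT, and those on chromosomes 7, 1, 15 and 17 also one in shCDK12 without OHT. These 5 were picked by width, and the shCDK12 + OHT list covered 546.5 Mb of the autosomes. The share of all 966 regions with such an overlap is not given here. The densest over 10 kb was chr4:13886001-13934000, with 2754 reads in 48.0 kb and a normalised density of 0.937, which stood 1750 kb from the nearest shNT region. Next came chr15:79018001-79034400 (896 reads, 0.892), only 6.0 kb from a shNT region, and chr16:15574401-15606000 (1626 reads, 0.840).

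The regions listed only with OHT were placed both beside and between the ERRs of shNT. Their median distance to the nearest shNT region was 107.6 kb, with 293 (30.3%) within 50 kb and 889 (92.0%) within 1000 kb. They formed 683 runs uninterrupted by another region of the list, 483 of them of a single region and 58 of 3 or more, and these 58 runs held 199 regions. The longest run had 8 regions on chromosome 10 between 89388401 and 91327200, which covered 269.2 kb with 9614 reads. On chromosome 3, 6 regions between 125318801 and 126157200 covered 283.6 kb with 10186 reads. A run of 6 on chromosome 5 was spread over 6106.4 kb, from 43308401 to 49414800, and covered 136.8 kb of it. This span crosses the centromere, and no region of the shNT + OHT list lay between 46370000 and 49405601. The last region of the run had a normalised density of 0.293, the lowest of the shNT + OHT list. The length of this run therefore does not show a cluster of regions. Whether the sequence there can be mapped was not tested.

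The 57 ERRs listed only in shNT had a median width of 30.0 kb, a median of 436 reads and a median normalised density of 0.70. The widest was chr18:6537201-6596400 (59.2 kb, 673 reads, normalised density 0.508), which was also called in shCDK12 and not in shCDK12 + OHT, as was chr19:9147601-9198000 (50.4 kb, 599 reads, 0.531). In neither silenced list were chr5:93542001-93597200 (55.2 kb, 919 reads, 0.744) and chr2:216521601-216570800 (49.2 kb, 746 reads, 0.677). The region chr15:30321601-30373600 (52.0 kb, 634 reads, 0.545) was in both. Of the 57, 21 were up to 10 kb wide.

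Chromosomes differed slightly in their median density ratio. The median was above 0 with its 95% interval on chromosomes 19 (0.08, 0.04 to 0.11, n = 75), 22 (0.07, 0.02 to 0.11, n = 65), 17 (0.06, 0.02 to 0.11, n = 150) and 15 (0.04, 0.00 to 0.07, n = 114). It was below 0 on chromosomes 18 (-0.11, -0.17 to -0.02, n = 55) and 8 (-0.08, -0.11 to -0.01, n = 132). The interval is that of a median over regions of 1 pair of lists, which are not replicates. In the silenced pair the medians of chromosomes 19, 22, 17 and 15 were between -0.04 and -0.01 and that of chromosome 18 was 0.06, while that of chromosome 8 was below 0 in both pairs (-0.08 and -0.07). The silenced medians rest only on regions with a counterpart, and no interval was computed for them. Such regions numbered 41, 37, 107 and 82 on chromosomes 19, 22, 17 and 15, and 32 and 96 on chromosomes 18 and 8. Over the 22 autosomes the medians of the pairs had a Spearman correlation of -0.41. On all 22 autosomes more regions were listed only with OHT than only without it. Relative to the shNT regions, the share was greatest on chromosome 13, with 33 for 50 shNT regions, and on chromosome 4, with 54 for 135. It was least on chromosome 17, with 39 for 214. Nearly as low were chromosome 20, with 23 for 126, and chromosome 16, with 29 for 158.

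**Figure D5:**
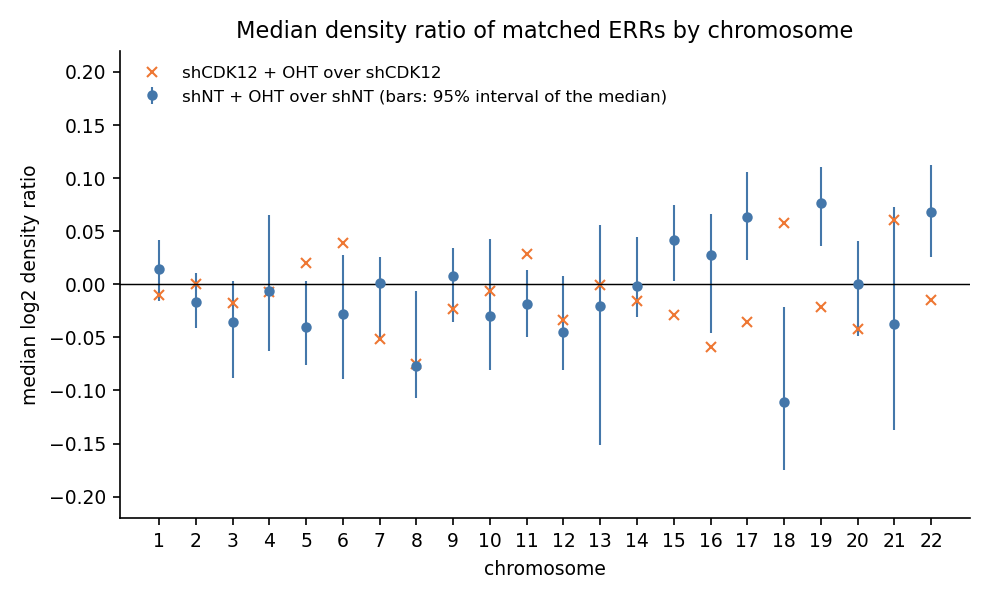
Median log2 density ratio of matched ERRs on each autosome for shNT + OHT over shNT (blue points, bars show the 95% interval of the median over regions). Orange crosses, the median for shCDK12 + OHT over shCDK12, which rests only on the ERRs with a counterpart in the silenced pair and has no interval. Chromosomes 15, 17, 19 and 22 lie above 0 with their intervals and 8 and 18 below, and the crosses of 15, 17, 18, 19 and 22 are on the other side of 0.

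On a finer scale, 144 windows of 10 Mb held at least 10 matched regions each, 2359 in all. Their medians ranged from -0.28 to 0.18, or from 0.822-fold to 1.13-fold. The lowest window was chromosome 5 from 70 to 80 Mb, where 8 of 11 regions were below 0, followed by chromosome 1 from 210 to 220 Mb (-0.26, 9 of 11 below 0) and the chromosome 7 window described above (-0.23). The highest was chromosome 17 from 20 to 30 Mb (0.18, 18 of 23 above 0), with chromosome 5 from 0 to 10 Mb (0.17, 8 of 10) and chromosome 10 from 100 to 110 Mb (0.15, 13 of 17) next. Over the 144 windows the medians had a Pearson r of 0.35 and a Spearman rho of 0.23 with those of the silenced pair, the opposite sign to that over chromosomes. The end of chromosome 5 was also where matched regions widened most among the 6 named windows, by a mean of 13.7 kb. Regions close to each other were slightly alike. The log2 ratios of neighbouring matched regions up to 0.25 Mb apart had a Pearson r of 0.17 (1186 pairs), falling to 0.03 beyond 2 Mb (343 pairs). These correlations are across regions that share both libraries.

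The density changes were partly shared with the CDK12-silenced cells. Of the matched regions, 2143 had a counterpart matched 1 to 1 in both silenced lists, which share no sample with the shNT pair. There the 1.5-fold limit was passed upward by 1.4% and downward by 3.55% of the 2143. Across them the log2 ratios of the pairs had a Pearson r of 0.24 and a Spearman rho of 0.43. The correlation was higher among wider regions, with r = 0.45 over 10 kb (n = 2005) and 0.54 over 50 kb (n = 1426). The points share chromosomal position and base composition between the pairs. Of the 6 regions over 10 kb that were lower in the shNT pair and had a counterpart, all were below 0 in the silenced pair and 4 were below the 1.5-fold limit. The 1 higher region over 10 kb with a counterpart was above 0 there. Among regions up to 10 kb wide, 23 of 28 lower ones were below 0 in the silenced pair, and 4 of 15 higher ones were above 0. The silenced median was -0.004 over all 2005 regions over 10 kb. It was -0.37 for those from 2 to 10 kb (n = 59) and -0.32 up to 2 kb (n = 79). Width differences had a Pearson r of 0.32 (n = 2143). Whether the response to OHT differs between the backgrounds was not tested, since each rests on 1 list per condition.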

How the data were processed

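EdU-HU-seq libraries of 12 samples, 3 for each of 4 conditions, were described in the labels, and the authors deposited 1 list of regions per condition made from merged replicates. The submitters' processing notes name BWA 0.6.2, SAMtools and SICER and the builds hg19 and mm10, without saying which step each served. The lists reach past the end of the hg38 sequence on 13 of 22 autosomes, and positions are given on hg19, counted from 1. Annotation of hg19 was not used here, so overlap with genes was not analysed. The deposited counts are whole reads per region, and the authors did not scale them to library size. The deposited score was used only as a common minimum in an alternative.

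Regions were matched when each overlapped the other by at least 1 bp and nothing else. Density was reads over width, divided by the median of the matched regions of the list. Intervals of ratios are exact conditional 95% intervals for a pair of counts, those of medians come from the binomial order statistics, and reads without molecular identifiers are not independent molecules. With 1 list per condition no test was made. The named regions were the 5 highest and 5 lowest density ratios with at least 200 reads and 10 kb in both lists, the 5 largest gains and losses of width, the 5 longest outward and inward edge moves, the 5 widest and 3 densest (at least 10 kb) listed only with OHT, the 5 widest listed only in shNT, the 3 joined and 3 divided groups of most regions, and the 3 extreme chromosomes and 10 Mb windows with at least 10 regions at each end. The members and lists were chosen with earlier results of these data known. The functions were tested on simulated data. The scripts ran under Python 3.11.15 with scipy 1.17.1, numpy 2.4.6, matplotlib 3.10.9 and pandas 2.3.3.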

Additional observations from a re-analysis of the deposited data

Results flagged for a closer look

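The region chr10:42596401-42609600, beside the centromere of chromosome 10, was among the 3 densest matched regions over 2 kb wide, which were chosen after their values were seen. It had 32435 reads in shNT and 61429 with OHT, 110 and 78.4 times the median density, and a log2 ratio of -0.49 (95% counting interval -0.51 to -0.47). In the CDK12-silenced pair its log2 ratio was 0.70 (0.68 to 0.72), and the called region was narrower with OHT by 5.6 kb. The difference between the pairs was not tested, and each side is 1 list per condition.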

How the results depend on the processing

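With 1 merged list per condition, depth and replicate spread could not be assessed, and leaving out a replicate could not be run. No paired analysis was possible because the lists merge the replicates of a condition and carry no replicate number. Of 69 values under alternatives, 52 stayed within their limits and 17 moved. For counts and the interquartile range the limits were a 1.5-fold change either way. For the other values they were the 95% interval of the reported value. Counts, shares and the interquartile range cannot change sign, and the median log2 width ratio was 0 as reported. Only r with the silenced pair could have changed sign, and it stayed above 0. The balance of higher and lower regions turned under 1 scaling, given below. A reciprocal overlap of 50% changed the share of higher regions to 0.330% and the regions listed only in shNT to 465, left 0 joined and 0 divided groups by its construction, and gave r = 0.478 with the silenced pair. With a common score minimum 90 regions were listed only in shNT, against 57 as reported. The regions listed only in shNT + OHT then fell from 966 to 649, which is inside the 1.5-fold limit. Among regions at least 10 kb wide, 0.0677% were higher, 0.779% lower and 37 listed only in shNT, and r was 0.450. Above 50 kb, an alternative chosen after seeing the data, r was 0.545. Scaling by the regions up to 2 kb wide made 8.02% higher and 0.773% lower, which turns the balance, and the median log2 ratio then became 0.32. At 2-fold, 0.354% were higher and 0.709% lower. Without minimums 0 of the 10 regions named by density stayed named, and with at least 1000 reads 3 did. The cause was not tested except where the construction shows it.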

Other observations

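Without a minimum of reads or width, the extremes of density were narrow calls. The lowest was chr4:76807201-76807600, which had 143 reads over 0.4 kb in shNT and 365 over 3.2 kb with OHT, a log2 ratio of -3.10. At the end of the long arm of chromosome 4, chr4:191043601-191044400 had 102 reads over 0.8 kb in shNT, and 800 over 16.8 kb with OHT (-2.87). The highest was chr17:55149601-55171600, with 305 reads over 22.0 kb in shNT and 128 over 0.4 kb with OHT, a log2 ratio of 3.08, and with -0.18 in the silenced pair. It was followed by chr21:9928001-9931600, with 99 reads over 3.6 kb and 173 over 0.4 kb (2.52). The regions farthest from any shNT region were 3 on the distal long arm of chromosome 6, with gaps of 10770, 10343.6 and 6940.4 kb. The farthest was a call with 130 reads over 1.2 kb, and the next had 93 reads over 0.4 kb. The third, chr6:167086001-167119200, held 1119 reads over 33.2 kb with a normalised density of 0.550. No region of the silenced lists overlapped these 3.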
